A study of Mustela putorius furo with 8 samples.

Results

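The cells described here are those that the deposited annotation of a ferret pancreatic duct culture calls acinar. There were 343 of them among 32945 annotated cells, and all belonged to cluster 26 of the wild-type (WT) cells. The day 2 library held 339, which was 5.45% of its 6224 cells (exact binomial 95% interval, 4.90 to 6.04%). The day 7 library held 3, the day 9 library held 1, and 0 of 5326 WT day 5 cells had the label. With a count of 0 read as at most 3 cells, this allows a share of up to 0.0563% (exact binomial upper limit, 0.0692%). None of the 11345 cells without functional CFTR (CF) was labelled acinar. The study first named the clusters of WT and CF cells separately. The absence of the label in CF therefore describes the naming and sets no limit on like cells there. What follows therefore rests on the 339 cells of day 2, compared with the other 5885 WT cells of the same library.

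The cultures were polarized pancreatic ductal epithelia (PDE), grown from the duct structures of pancreata of newborn ferrets aged 1 to 3 days. WT and CF (CFTR knockout) cells were kept for 10 passages to remove other cell types, seeded on transwell inserts, brought to an air-liquid interface and taken at day 2, 5, 7 or 9. Cells of 3 donors were pooled within a genotype, dead cells were removed, and each genotype and day gave 1 droplet library, 8 in all. CFTR is the chloride and bicarbonate channel lost in cystic fibrosis.

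Acinar cells of the pancreas make and store digestive enzymes as granules, under transcription factors such as PTF1A, RBPJL and BHLHA15. A cell that copies its DNA passes through S phase. The origin recognition complex, CDC6 and CDT1 first load the MCM helicase on DNA, CDC45 and the GINS proteins then start it, and polymerases held by the PCNA clamp copy the strands while chromatin is rebuilt behind the fork. In G2 and mitosis (G2/M) genes such as TOP2A, MKI67 and CCNB1 follow.

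The 339 cells carried 7126596 UMIs (unique molecular identifiers, 1 for each captured RNA), with a median of 19218 UMIs and 4289 genes a cell. The other WT day 2 cells had medians of 16061 UMIs and 3733 genes. The median share of mitochondrial UMIs was 8.92% against 9.19%. The 8 libraries held 34735952 to 114585136 UMIs in retained cells. Of all cell barcodes, 148 occurred in more than 1 library, 1 of them on an acinar-labelled cell. Levels are given as CPM, the UMIs of a gene per 1000000 UMIs, summed over the cells of a class. The classes compared are cells of 1 library without a replicate, so no test was made between them, and every interval covers counting error only. The label came from clustering on the same genes, so a gene that is high or low in these cells describes the label and is no independent support for it.

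Most of the acinar enzyme genes that were analysed had no UMI in the cells with the label. Of 27 listed genes for enzymes and granule proteins, 15 were not analysed here, the listed amylase, trypsinogen and elastase 3 genes among them, so the label could be checked on the other 12 alone. Of these, 9 had 0 UMIs, among them the carboxypeptidase gene CPB1, the lipase-related PNLIPRP1 and the granule gene GP2. A count of 0 allowed up to 0.421 CPM. The 12 genes together reached 16.0 CPM (13.2 to 19.2), below the 24.0 CPM of the other WT day 2 cells. Ductal cluster 6, described further on, was near them at 17.5 CPM (15.6 to 19.5). The colipase gene CLPS made up most of that sum, with 14.2 CPM (11.5 to 17.2) against 22.6 CPM, while CTRL had 6 UMIs and CUZD1 had 7. After each cell was thinned to 3000 UMIs, 3.24% of the acinar-labelled and 6.79% of the other WT day 2 cells held a CLPS UMI, and 7.70% of the centroacinar progenitors did. Without thinning it was seen in 21.8%, 28.7% and 31.9%.

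Of 6 acinar transcription factor genes, PTF1A, RBPJL and BHLHA15 had 0 UMIs and GATA4 had 3. NR5A2, a nuclear receptor of acinar and progenitor cells, had 4 UMIs and 0.561 CPM, against 8.11 CPM in the other WT day 2 cells. It was at 55.3 CPM in the ductal clusters nearly without SOX2 described further on, and at 0.650 CPM in the other ductal clusters and 0.0640 CPM in proliferating acinar cells. MECOM, which is not particular to acinar cells, was the exception at 90.5 CPM, near the 94.5 CPM of the other cells. The markers of islet, immune, endothelial and mesenchymal cells were also at or near 0, with 10 of the 11 analysed at 0 UMIs and 8 UMIs of CD68. The enzyme genes analysed here thus did not mark these cells, which are called acinar-labelled throughout.

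The genes with the largest excess were mostly those of DNA replication. Among the 5319 genes with at least 20 CPM over all WT day 2 cells, 14 of the 15 with the largest excess were in the lists of S phase, replication or S phase repair genes, and the remaining one was PCLAF, the PCNA clamp-associated factor. None of the 7 acinar markers used by the study was among these 15. Among the 50 genes with the largest excess, 32 were in a cell cycle list. In all, 497 of 9154 genes with at least 5 CPM were at least 1.5-fold higher in the acinar-labelled cells (5.43%), and 462 were at least 1.5-fold lower (5.05%). Outside the cell cycle lists, which held 157 of the genes compared, 398 genes were higher and 455 lower. Of the 37 S phase genes that passed the 5 CPM limit, out of 41 analysed and 43 listed, 36 were at least 1.5-fold higher and none was lower. The exception, the licensing inhibitor GMNN, was at 272 against 217 CPM. The median log2 difference of the list was 1.90, and the median over all 9154 genes was -0.0040.

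**Figure D1:**
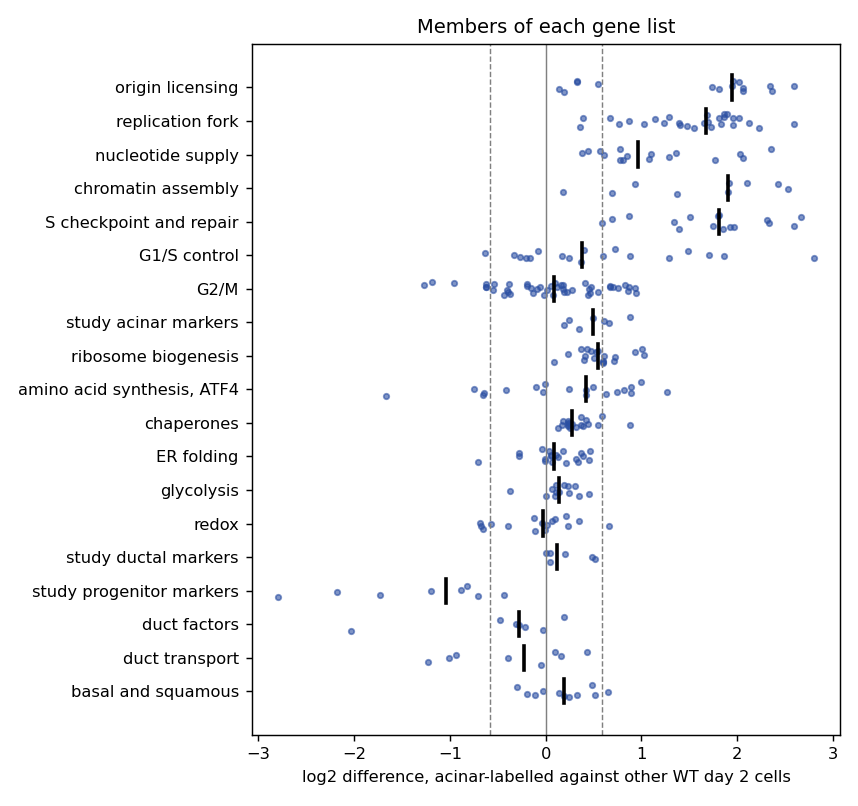
Each point is 1 gene of a list, placed by its log2 difference (CPM plus 1) between the 339 acinar-labelled and the 5885 other WT day 2 cells; black bars are list medians and dashed lines mark 1.5-fold. The replication lists sit to the right, with a median of 1.95 for origin licensing, and the study's progenitor markers to the left, with a median of -1.04.

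Origin licensing and helicase genes were among the highest over the other cells. Of 15 licensing genes compared, 10 were at least 1.5-fold higher, and all 15 had a positive difference. MCM4, a subunit of the helicase ring, was at 162 CPM (153 to 172) in acinar-labelled cells and 31.2 CPM in the other cells, a ratio of 5.20 (4.86 to 5.56). In ductal cells it was at 29.1 CPM and in proliferating acinar cells at 66.5 CPM. The loading factor CDC6 was at 29.3 against 4.04 CPM (ratio 7.26, 6.13 to 8.58), and MCM10 at 51.9 against 9.26 CPM. The recognition complex was uneven. ORC6 was at 158 against 40.0 CPM, whereas ORC2, ORC4 and ORC5 had ratios of 1.27, 1.15 and 1.11, and for ORC4 and ORC5 the counting interval held 1.

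Genes of the replication fork were higher as a group. Of 28 compared, 26 were at least 1.5-fold higher, with a median log2 difference of 1.67. CLSPN, which links the fork to the checkpoint kinase CHEK1, was at 152 CPM (143 to 161) against 24.2 CPM, a ratio of 6.25 (5.82 to 6.72). It was at 12.6 CPM in ductal cells, 103 CPM in proliferating acinar cells and 2.48 CPM in centroacinar progenitors. The helicase activators GINS1, GINS2 and GINS4 had ratios of 4.92, 4.19 and 4.87. PCNA was at 427 CPM (412 to 442) against 117 CPM. The small polymerase and single-strand binding subunits POLE4 and RPA3 were the 2 below the limit, at ratios of 1.29 and 1.31.

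Genes for the supply of nucleotides were also higher. Of 16 genes compared 13 were at least 1.5-fold higher, and all 16 had a positive difference (median 0.96). The enzymes that make or salvage deoxynucleotides were the highest of these. Thymidine kinase TK1 was at 112 against 21.1 CPM, thymidylate synthase TYMS at 54.3 against 12.3 CPM, and the ribonucleotide reductase subunit RRM2 at 386 against 93.9 CPM. The purine synthesis genes ATIC, IMPDH2 and the folate enzyme gene MTHFD1 had ratios of 1.48, 1.36 and 1.31.

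Chromatin assembly and genome maintenance genes had the same direction. UHRF1, which recruits the maintenance methylase DNMT1 to new DNA, was at 127 against 21.1 CPM (ratio 6.02), and DNMT1 itself at 289 against 111 CPM. The histone chaperone subunits CHAF1A and CHAF1B were at 108 and 28.6 CPM, against 19.4 and 5.90 CPM. All 16 checkpoint and repair genes were at least 1.5-fold higher, with a median of 1.81. They ran from ATR, the kinase that senses stalled forks, at a ratio of 1.55 (1.27 to 1.88), to UNG, which removes uracil from DNA, at 7.21 (6.28 to 8.26). BARD1 and its partner BRCA1 had ratios of 6.47 and 5.49.

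Of 18 genes of the G1/S transition, 8 were at least 1.5-fold higher and 1 was lower, beside 5.43% and 5.05% of all genes, with a median of 0.38. E2F1, a transcription factor of S phase entry, had the largest difference of all list members compared, at 56.7 CPM (51.3 to 62.5) against 7.30 CPM, a ratio of 7.77 (6.87 to 8.77). MYBL2 was at 102 against 27.3 CPM. CCND1 was at 147 against 114 CPM, CCND3 at 130 against 137 CPM and CCND2 at 237 against 274 CPM. CDKN1A, an inhibitor of cyclin-dependent kinases, was the member at least 1.5-fold lower, at 277 against 429 CPM.

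The S phase signal was carried by nearly every acinar-labelled cell. S phase genes took a median of 0.363% of a cell's UMIs, with 0.276% at the 10th and 0.465% at the 90th percentile, and the lowest cell was at 0.175%. A median of 27 of the 41 S phase genes was seen in a cell, and no cell showed fewer than 14. The ductal cells had a median of 6 genes and 0.0666% of UMIs, the centroacinar progenitors 0.0403% and the proliferating acinar cells 22 genes and 0.251%. The order was the same with each cell thinned to 3000 UMIs, where the medians were 0.367% in acinar-labelled, 0.0667% in ductal, 0.0333% in progenitor and 0.233% in proliferating acinar cells. No acinar-labelled cell had fewer than 3000 UMIs, and 80 of the other cells were left out of the thinning. PCNA had at least 1 UMI in all 339 cells and RRM2 in all but 2. After thinning, a PCNA UMI was found in 73.5% (249 of 339) of acinar-labelled cells, 54.6% of proliferating acinar cells, 21.3% of ductal cells and 11.5% of centroacinar progenitors. CLSPN, at 34.8% of acinar-labelled cells, was in 0.560% of the progenitors, a class with little S phase RNA.

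The deposited cell cycle phase was S for all 339 cells, G1 for 75.7% of ductal cells and G2M for 71.2% of proliferating acinar cells. The deposited S score had a median of 0.301 in acinar-labelled cells, 0.146 in proliferating acinar cells and -0.0839 in ductal cells. These calls were made from largely the same genes and are a second reading of the same counts.

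Genes of G2 and mitosis were lower in the acinar-labelled cells than in the proliferating acinar cells. The study named the proliferating acinar clusters partly by cell cycle genes such as CCNB1 and CDC20. This difference therefore describes the naming and is no independent result. The 46 compared G2/M genes had a median log2 difference of 0.087 against all other WT day 2 cells. It was 1.75 against ductal cells and -1.83 against proliferating acinar cells. Of the 46, 42 were at least 1.5-fold lower than in proliferating acinar cells, as were 2.79% of all genes, with 1.34% higher, and 39 were at least 1.5-fold higher than in ductal cells, as were 6.57% of all genes, with 4.12% lower. TOP2A, which untangles DNA, was at 46.4 CPM (41.6 to 51.7), against 283 CPM in proliferating acinar and 7.17 CPM in ductal cells. MKI67 was at 18.7, 176 and 3.13 CPM in the same order, and the mitotic cyclin CCNB1 at 7.44, 143 and 1.71 CPM. A CCNB1 UMI was missing from 291 of the 339 cells. For these 3 genes the acinar-labelled cells lay between the ductal and the proliferating acinar cells.

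**Figure D2:**
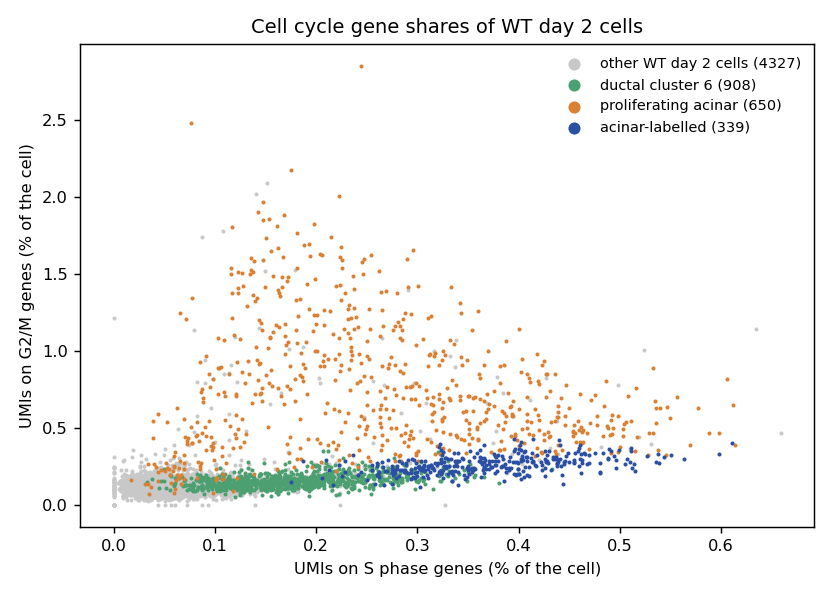
Each point is a WT day 2 cell, placed by the percent of its UMIs on S phase genes (horizontal) and on G2/M genes (vertical). The 339 acinar-labelled cells have a median of 0.363% on S phase genes, above ductal cluster 6 (0.172%) and the proliferating acinar cells (0.251%), and of 0.260% on G2/M genes, between those sets (0.152% and 0.657%).

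The plot of cell cycle shares shows which cells lay nearest. Ductal cluster 6 (908 cells, labelled ductal) was the ductal cluster with the highest median S phase share, 0.172%, and 79 of its cells (8.70%) reached the 10th percentile of the acinar-labelled cells. In the other ductal clusters together, 40 of 3544 did (1.13%). The proliferating acinar class consisted of cluster 25, with a median S phase share of 0.342% and 282 of 378 cells past that percentile, and cluster 28, with 0.137% and 7 of 272. The percentile is a point in a range and not a boundary, since 131 ductal, 92 proliferating acinar and 60 acinar-labelled cells lay within 10% of it.

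**Figure D3:**
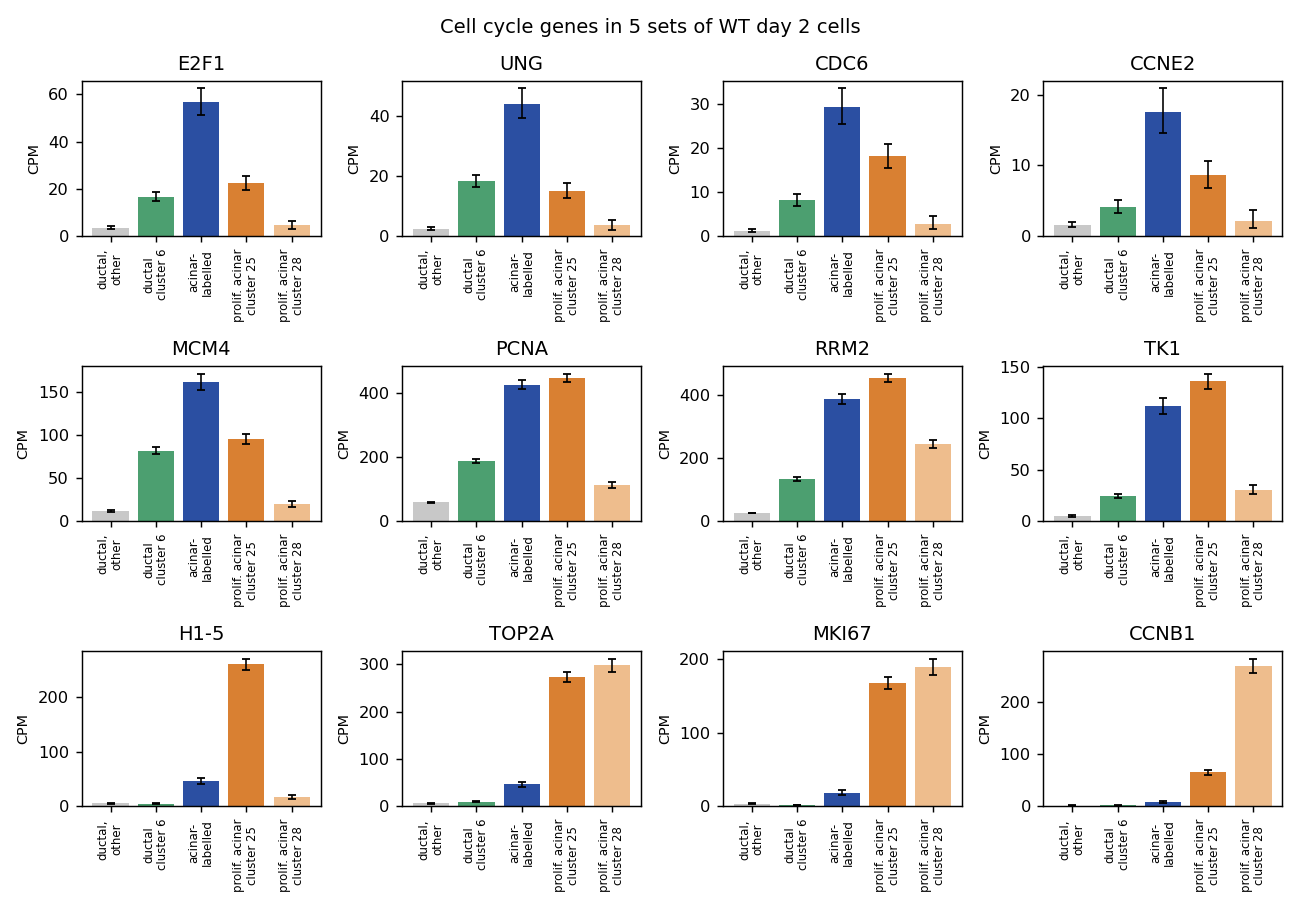
Bars are CPM summed over 5 sets of WT day 2 cells, with exact Poisson 95% intervals that cover counting error only; each axis starts at 0. E2F1, UNG, CDC6, CCNE2 and MCM4 peak in the acinar-labelled cells, PCNA, RRM2 and TK1 are also high in cluster 25, and H1-5, TOP2A, MKI67 and CCNB1 are high in cluster 25 or 28.

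E2F1, UNG, CDC6 and CCNE2, chosen after their values were seen, were highest in the acinar-labelled cells among these 5 sets. E2F1 was at 16.7 CPM in ductal cluster 6, 56.7 CPM in acinar-labelled cells, 22.4 CPM in cluster 25 and 4.53 CPM in cluster 28. UNG, at 18.3, 43.9, 14.9 and 3.52 CPM, CDC6, at 8.15, 29.3, 18.1 and 2.85 CPM, and the S phase cyclin CCNE2, at 4.07, 17.5, 8.60 and 2.18 CPM, had the same peak. CCNE2 was below the 5 CPM limit over all WT day 2 cells. The wider lists were also compared with cluster 25. Of 15 licensing genes 3 were at least 1.5-fold higher than in cluster 25 and none was lower (median 0.27). Of 18 G1/S genes 2 were higher and 4 lower (median 0.018), and of 37 S phase genes 7 were higher and none lower (median 0.19). Of all genes, 1.11% were higher and 2.51% lower in this comparison.

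The 28 fork genes had a median difference of -0.0080 against cluster 25, with none at least 1.5-fold apart. PCNA was at 427 CPM (412 to 442) against 448 CPM (435 to 462), with overlapping intervals. Of the nucleotide genes, RRM2 was lower than in cluster 25, at 386 CPM (372 to 401) against 454 CPM (440 to 467), and so was TK1, at 112 CPM (104 to 120) against 136 CPM (129 to 143). Both differences were below 1.5-fold. Of the 16 nucleotide genes, 2 others were at least 1.5-fold lower than in cluster 25 and none was higher (median -0.068). The linker histone gene H1-5 was at 46.4 CPM (41.6 to 51.7) in acinar-labelled cells, 260 CPM (250 to 270) in cluster 25, 17.3 CPM in cluster 28 and 5.05 CPM in ductal cluster 6. Against cluster 25 as a whole, 102 of 9154 genes were at least 1.5-fold higher (1.11%) and 230 lower (2.51%), and 39 of the 46 G2/M genes were among the lower ones. Against cluster 28, 4.76% of genes were higher and 4.35% lower, and 32 of the 37 S phase genes were among the higher.

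Against ductal cluster 6 the differences were mostly upwards, with 326 genes at least 1.5-fold higher (3.56%) and 44 lower (0.481%). The higher ones included 34 of the 37 S phase genes and 34 of the 46 G2/M genes. Of the 326, 216 lay outside the cell cycle lists. In the lists of ribosome biogenesis, chaperone, glycolysis and redox genes and the study's acinar and ductal markers, no gene was 1.5-fold apart in either direction. Counts of 0 in lists of this size are near the shares of all genes. Other lists did differ. Of 19 genes of amino acid supply and the ATF4 response, 3 were higher and 1 was lower. Higher were also 2 of the study's 8 progenitor markers, 1 of its 5 centroacinar markers and 1 of 8 duct transport genes, with none lower.

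The 7 genes that the study used as acinar markers were somewhat higher in the labelled cells, and they were shared with the proliferating and ductal clusters. All 7 had a positive difference against the other WT day 2 cells, with a median of 0.50, or 0.28 in cells thinned to 3000 UMIs. Without thinning, 3 of the 7 reached 1.5-fold, beside 5.43% of all genes. These were the HSP90 co-chaperone FKBP4, at 136 CPM (127 to 144) against 72.9 CPM, the peroxidase PRDX2, at 329 against 207 CPM, and the endoplasmic reticulum (ER) prolyl isomerase FKBP11, at 173 against 113 CPM. Asparagine synthetase ASNS was at 63.0 against 44.4 CPM, the ER peroxidase PRDX4 at 132 against 104 CPM, lactate dehydrogenase LDHA at 843 against 712 CPM and the stress factor NUPR1 at 137 against 120 CPM.

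Among the 13 WT day 2 clusters with at least 50 cells, the acinar-labelled cluster had rank 1 for PRDX2, FKBP4 and FKBP11, rank 3 for ASNS, rank 4 for LDHA and PRDX4 and rank 6 for NUPR1. The ranks carry no counting interval, and for several markers the gap to the next cluster was small. ASNS was highest in ductal cluster 37, at 91.5 CPM. It was at 63.0 CPM in the acinar-labelled cluster, 63.6 CPM in cluster 25 and 62.4 CPM in cluster 28. The clusters above the acinar-labelled one for NUPR1 included cluster 35, which held only 159999 UMIs. PRDX2 was at 326 CPM in cluster 25, FKBP4 at 127 CPM and FKBP11 at 152 CPM. LDHA was highest in ductal cluster 4, at 900 CPM, PRDX4 in cluster 25, at 153 CPM, and NUPR1 in ductal cluster 4, at 195 CPM. Summed, the 7 markers came to 1813 CPM in the acinar-labelled cells, 1735 CPM in ductal cluster 6, 1727 CPM in cluster 25 and 1692 CPM in cluster 28. The median difference was 0.040 against proliferating acinar cells and 0.14 against ductal cluster 6, with 0 of 7 genes at 1.5-fold in either comparison. Of all genes, 1.34% were higher and 2.79% lower in the first comparison, and 3.56% and 0.481% in the second. A count of 0 of 7 is near these shares.

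**Figure D4:**
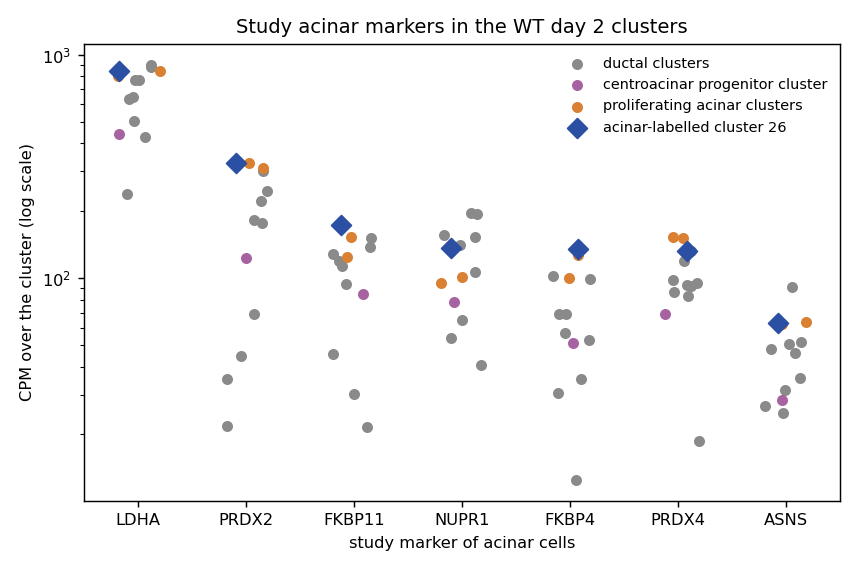
Each point is 1 of 13 WT day 2 clusters, by its CPM (log axis) for the 7 study markers of acinar cells; the diamond is the acinar-labelled cluster 26. For PRDX2, FKBP4 and FKBP11 the diamond is highest, at 329, 136 and 173 CPM, next to the proliferating acinar and ductal clusters. For NUPR1 the diamond has rank 6 of the 13, at 137 CPM.

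Of 11 basal and squamous genes compared, 1 was at least 1.5-fold higher and none lower, with 7 positive and 4 negative differences, and against ductal cluster 6 the median was -0.14 with 1 of 11 positive. KRT14, KRT17, KRT6A and KRT13 were not analysed here. Of 8 duct transport genes compared, 3 were at least 1.5-fold lower and none higher (median -0.22), beside 5.05% and 5.43% of all genes. Against ductal cluster 6 none was lower and 1 was higher (median 0.0055), and against proliferating acinar cells none of the 8 was 1.5-fold apart. Against SOX2-high ductal cells 2 of the 8 were lower and none was higher, beside 2.35% and 6.2% of all genes. Of 7 genes in the list of duct transcription factors, PAX6 was the 1 at least 1.5-fold lower, and against SOX2-high ductal cells 0 of the 7 were. The sodium channel subunit SCNN1A was at 26.9 against 64.4 CPM and the sodium pump subunit ATP1B1 at 74.5 against 151 CPM. The keratin KRT19 was at 5263 CPM in acinar-labelled cells, 5103 CPM in the others and 5361 CPM in ductal cells, and every acinar-labelled cell held at least 18 of its UMIs. The basal keratin KRT5 was at 1503 against 1048 CPM, KRT15, another basal keratin, at 179 against 128 CPM and TP63, a basal cell transcription factor, at 97.8 against 85.7 CPM, while KRT4 was at 64.4 against 79.5 CPM. The 6 ductal markers of the study had positive differences from 0.0083 to 0.52 against the other WT day 2 cells and negative ones, with a median of -0.13, against ductal cluster 6. FOXA1 and GATA6 were at 93.2 and 37.6 CPM against 113 and 46.9 CPM. The duct regulator SOX9 was at 1.68 against 3.69 CPM, below the 5 CPM limit over all cells, and PDX1 had 0 UMIs in every class compared. CFTR, the other transport gene of the 3, was at 3.09 CPM (1.93 to 4.67) against 6.80 CPM.

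SOX2, a transcription factor of foregut progenitors, was found at 113 CPM (105 to 121) in the acinar-labelled cells and PAX6, an eye and islet factor, at 4.35 CPM. The ductal cells of day 2 fell into clusters with SOX2 (3603 cells, 129 CPM) and clusters nearly without it (849 cells, 3.11 CPM), which had 6.13 and 113 CPM of PAX6. The limit between them was 10 CPM of SOX2 over a cluster, set after the data were seen, and no WT cluster lay between 4.87 and 50.6 CPM. On both genes the acinar-labelled cells resembled the first set.

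Of the 15 genes with the largest deficit in acinar-labelled cells, 10 were higher in SOX2-low than in SOX2-high ductal cells, as were 52.8% of the 5319 genes they were drawn from. Of the 15, 7 were highest in centroacinar progenitors among the acinar-labelled, proliferating acinar, progenitor and both ductal sets, as were 26.8% of the 5319. The neuritin gene NRN1 was at 1.40 CPM in acinar-labelled, 3.53 CPM in SOX2-high ductal and 273 CPM in SOX2-low ductal cells. The antiviral helicase gene DDX60 was at 3.51, 6.88 and 431 CPM and the small heat shock gene HSPB1 at 42.4, 52.5 and 1659 CPM in the same order. Other genes of the 15 were highest in the progenitors. LYPD2 was at 1.68 CPM against 240 CPM in progenitors, the membrane mucin MUC4 at 4.21 against 115 CPM and the oxidase maturation factor DUOXA2 at 4.91 against 220 CPM. ASPM, a spindle gene, was at 4.49 CPM in acinar-labelled, 188 CPM in proliferating acinar and 2.50 CPM in ductal cells.

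Compared with SOX2-high ductal cells alone, the genes at least 1.5-fold lower numbered 215 (2.35%) in place of 462, and those higher 568 (6.2%). NRN1 was then at a log2 difference of -0.91 and DDX60 of -0.81, from -4.08 and -3.90. The S phase median was 2.06 and the acinar marker median 0.39. Of the study's 8 progenitor markers compared, 6 were at least 1.5-fold lower than in SOX2-high ductal cells and none was higher (median -0.67). Against ductal cluster 6 the sign turned, with 2 higher and none lower (median 0.31).

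When the comparison was narrowed to the 88 SOX2-high ductal cells whose S phase share reached the acinar 10th percentile, 79 of them from cluster 6, most list differences became small. These cells held 1483407 UMIs, so that counts of single genes were few. The S phase median was 0.23, the acinar marker median 0.12 with 0 of 7 genes at 1.5-fold, and the ribosome biogenesis median -0.052. The progenitor marker median was 0.50, with 2 of 8 genes higher and none lower. The G2/M median was 0.75, and 27 of 46 G2/M genes were at least 1.5-fold higher (5.64% of all genes, with 2.46% lower). The cells were chosen by their S phase genes, so the S phase value describes that choice.

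Ribosome biogenesis genes were moderately higher, and ribosomal protein genes were near the levels of the other cells. All 19 ribosome biogenesis genes had a positive difference, and 9 were at least 1.5-fold higher (5.43% of all genes were), with a median of 0.55. Against proliferating acinar cells and cluster 25 none of the 19 was 1.5-fold apart, with medians of 0.18 and 0.12. Of all genes, 1.34% and 1.11% were higher there, and 2.79% and 2.51% lower, so 0 of 19 is near these shares. LYAR, a nucleolar factor, was at 134 against 65.3 CPM, DKC1, the pseudouridine synthase, at 104 against 51.2 CPM and nucleolin NCL at 704 against 465 CPM. None of the 77 ribosomal protein genes compared was 1.5-fold apart (median 0.063). Against ductal cluster 6 no ribosome biogenesis gene reached 1.5-fold, and the median was 0.16. This count is also near the shares of all genes, 3.56% higher and 0.481% lower.

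Of 19 genes of amino acid supply and the ATF4 response, 7 were at least 1.5-fold higher and 4 lower, beside 5.43% and 5.05% of all genes. Against proliferating acinar cells and against cluster 25, 0 were higher and 1 was lower. Of all genes, 1.34% and 1.11% were higher in these comparisons, and 2.79% and 2.51% were lower. Against the other WT day 2 cells, the higher ones included enzymes of serine, proline and folate metabolism. MTHFD2 was at 23.9 against 9.32 CPM, PSAT1 at 43.4 against 22.9 CPM, PHGDH at 88.8 against 47.5 CPM and PYCR1 at 88.3 against 49.7 CPM. The lower ones were the stress-induced factor ATF3 at 228 against 360 CPM, SESN2 at 4.63 against 8.48 CPM, VLDLR at 5.89 against 9.79 CPM and the cystine transporter SLC7A11 at 1.82 against 7.94 CPM. ATF4 itself was at 190 against 193 CPM.

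Protein folding and energy genes were close to those of the other cells. Of 20 ER folding genes none was 1.5-fold higher and ERO1B, at 5.47 against 9.57 CPM, was lower, a share near the 5.05% of all genes. XBP1, a regulator of secretory cells, was at 64.4 against 64.7 CPM and the ER chaperone HSPA5 at 440 against 421 CPM. All 19 cytosolic chaperone genes had a positive difference, with a median of 0.28, and FKBP4 and TCP1 (243 against 161 CPM) reached 1.5-fold, beside 5.43% of all genes. None of the 13 glycolysis genes was 1.5-fold apart. Among 16 redox genes PRDX2 was higher, and PRDX1 (405 against 654 CPM), TXN and CAT were lower, beside 5.43% and 5.05% of all genes. PRDX1 was at 1351 CPM in SOX2-low ductal cells and at 371 CPM in ductal cluster 6.

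Outside the lists, 5 genes followed PCNA most closely over the 41 WT clusters of all days. They were DNAJC9 (Pearson r of log2 CPM plus 1, 0.867), ZW10 (0.846), LOC101688638 (0.836), PPM1G (0.809) and TFDP1 (0.808). The clusters share libraries and differ in depth, so these values are descriptions. DNAJC9, a histone chaperone, was at 68.8 against 24.4 CPM in acinar-labelled and other WT day 2 cells and TFDP1, the partner of E2F proteins, at 39.7 against 22.5 CPM.

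Cells with as much S phase RNA were not confined to the label, the day or the genotype. In WT day 2, 716 of 6224 cells (11.5%) had an S phase share at or above the acinar 10th percentile, of which 305 were acinar-labelled, 289 proliferating acinar and 119 ductal. The share was 2.84% at WT day 5, 1.25% at day 7 and 0.0554% at day 9. At WT day 5, where no cell was labelled acinar, 136 of the 151 such cells were labelled ductal. In CF the share was 2.31% at day 2, 1.02% at day 5, 0.933% at day 7 and 0.0402% at day 9. At CF day 2 the 104 such cells were labelled proliferating acinar (53) or ductal (51). CF libraries held 200 proliferating acinar cells, 154 of them at day 2. Each of these shares comes from 1 library, and the differences between genotypes and between days were not tested.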

How the data were processed

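Single-cell libraries of 8 ferret PDE cultures (1 for each genotype and day) were analysed. The authors counted UMIs with Cell Ranger (5.0.1 in the submitters' processing notes) and deposited raw counts per gene and barcode. They filtered barcodes on genes and mitochondrial share, removed doublets with DoubletFinder, merged the libraries and clustered them in Seurat (R 4.1.2). Their deposited cell table gave the class, the cluster, UMI and gene counts, the percent of mitochondrial UMIs and S and G2M scores per cell. A deposited normalized table and lineage scores were not used. The RefSeq gene table names no chromosome for these genes, so no positions are printed.

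Classes were taken from the cell table, and groups from the sample titles. For each class UMIs were summed and divided by the total (CPM). Differences are log2 of (CPM + 1) ratios over the 9154 genes with at least 5 CPM in the sum over all WT day 2 cells, and a ratio at or past 1.5-fold was counted. A fold change on this scale understates that of low genes. Intervals are 95% and exact: Poisson for CPM, Clopper-Pearson for shares, and conditional binomial for ratios. A count of 0 was read as at most 3 counts. The classes were compared within 1 library, so no test was made between them, and shares by library were not tested between genotypes or days. Cells were thinned to 3000 UMIs by drawing without replacement. Named genes were the 15 largest differences each way at 20 CPM or more, the 7 study markers, up to 4 of each list by size of difference, and fixed markers; other list members named were chosen after their values were seen. The members and the lists were chosen with earlier results of these data known, and the study chose its own markers on these cells. Sums were compared in Python 3.11.15 with numpy 2.4.6, scipy 1.17.1 and pandas 2.3.3, TMM factors came from edgeR 4.0.16 (R 4.3.3), and the comparison was tested on simulated data. Alternatives were other scalings, filters, pseudocounts and comparison cells.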

Additional observations from a re-analysis of the deposited data

How the results depend on the processing

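No paired analysis was possible because the classes compared are cells of 1 library; the libraries of both genotypes share days, but no value was tested between them. The main counts were 497 higher and 462 lower genes, and the S phase median of 1.90 was positive under every alternative run. TMM, median of ratios and the total without cycling and mitochondrial genes moved no list median by over 0.2. A pseudocount of 5 CPM gave 291 lower genes and an S phase median of 1.66. With no filter 758 genes were higher and 790 lower, and at 20 CPM 199 and 215, as more or fewer genes were compared. Weighting cells equally gave a G2/M median of 0.31. Thinned cells, with fewer UMIs a gene, gave 818 higher, 1014 lower, 0.30 for G2/M and 0.28 for the acinar markers. All WT libraries together gave 1030, 1858, 2.43, 0.57, 1.20 for the markers and 0.40 for ribosomal proteins, with the median of all genes at -0.11. Nearly all labelled cells were from day 2 and the others from every day, so label and day cannot be told apart in that comparison.

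Against ductal cells the S phase and G2/M medians were 2.14 and 1.75. Against proliferating acinar cells 123 genes were higher and 255 lower, with medians of 0.61, -1.83 and, for the markers, 0.040. Comparisons chosen after seeing the data gave 215 lower genes and 1.97 for G2/M (SOX2-high ductal), 326, 44, 1.00, 1.25 and 0.14 (ductal cluster 6), and 225 lower, 0.23, 0.75 and 0.12 (SOX2-high ductal in the S phase range). The cause was not tested.

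Called genes changed sign against ductal cells (log2 differences of 0.65 for ASPM, 1.17 for CDCA3, 1.31 for NUSAP1, 2.02 for CENPF, 1.64 for CCNB1 and 2.25 for MKI67) and against proliferating acinar cells (-0.46 for PCLAF, 0.036 for NRN1, 0.080 for DDX60, 0.28 for LOC101674231, 0.87 for DUOXA2, 0.19 for HSPB1, 0.42 for LOC106005313, 0.29 for MUC4, 0.55 for NR5A2, -1.22 for HMGB2, 0.0082 for TXN, -1.86 for CCNA2, 0.079 for PROM1, 0.087 for MUC1, 0.45 for MUC16 and 0.17 for SCNN1A). CAT was at 0.15 in thinned cells and MKI67 at 0.20 over all WT libraries. Of all deposited WT day 2 barcodes, 4.88% were acinar-labelled. The summed enzymes were at 24.0 CPM in the other WT day 2 cells and at 1.82 CPM without CLPS. The wider replication list took a median of 0.755% of UMIs in acinar-labelled cells and 0.646% in proliferating acinar cells. In cluster 25 it was higher, at 0.829%. A PCNA UMI was in 73.5% of thinned and 100% of unthinned cells. Depth limits what can be said of genes under about 5 CPM, and of the 4 acinar-labelled cells after day 2.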

Other observations

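The 4 genes that follow were picked after their values were seen and stand for no wider group. CDKN1A was at 277 CPM, the lowest of the 13 WT day 2 clusters with at least 50 cells, and the next cluster, 15, was at 303 CPM. MDM2, a target and inhibitor of p53, was also lowest there, at 81.5 CPM, against 193 CPM in SOX2-high ductal cells (ratio 0.422, 0.388 to 0.459). The stress gene SESN3 was at 81.2 against 149 CPM in the same comparison. KDM5B, a histone demethylase, was at 26.7 against 74.1 CPM, and cluster 25 was close to the acinar-labelled cells at 23.1 CPM. CDKN1A was not low in cluster 25, at 531 CPM, although that cluster had a like S phase share.

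H1-2 and H1-4, the other linker histone genes compared, were highest in cluster 25 among 4 of these sets. H1-2 was at 40.3 CPM in acinar-labelled cells, 14.0 CPM in ductal cluster 6, 209 CPM in cluster 25 and 43.4 CPM in cluster 28. H1-4 was at 47.3, 17.8, 168 and 38.4 CPM in the same order. Between acinar-labelled cells and cluster 28, H1-2 was close, with no counting interval given, and H1-4 was higher in the acinar-labelled cells.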
